A study of Homo sapiens with 3 samples.

Results

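Collagens are trimeric proteins of the extracellular matrix in which glycine recurs along each chain of a triple helix. Fibrillar collagens form the cable-like fibrils of connective tissue, type IV collagens form the sheet of the basement membrane on which squamous epithelium rests, and type VII collagen anchors that sheet to the tissue beneath it. Beaded-filament, fibril-associated, transmembrane and multiplexin collagens link these structures to each other and to cells. Fibroblasts make most fibrillar collagen of a tissue, while epithelial cells contribute basement membrane chains.

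The collagen genes were taken as all genes whose platform symbol is COL followed by a digit, on probe sets with 1 gene symbol. The rule found 44 of 18132 genes on the array, with 122 probe sets. Of these genes 43 encode collagen chains, with 121 probe sets, and 1 is COL18A1-AS1, an RNA antisense to COL18A1. COL18A1-AS1 was below the median of each array, with log2 signals of 4.51 or less, and is left out of every count of chain genes. COL17A1 was not analysed here.

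The arrays measured total RNA of KYSE180, an established human oesophageal squamous cell carcinoma line, with 1 array for each of 3 groups. HOTAIR vector cells had received a construct that expresses the long non-coding RNA HOTAIR (LZRS_HOTAIR, delivered with Polyfect). HOTAIR siRNA cells had received a mixture of siRNAs against HOTAIR (100 pmol, delivered with Lipofectamine2000), and RNA of both arms was taken after 48 h. Control cells are labelled as control with no reagent named, so the transfection reagent and the nucleic acid cannot be told apart from the change in HOTAIR. The source name of the siRNA sample speaks of a HOTAIR cell line while its title and cell line field give KYSE180, which was used. The level of HOTAIR itself was not analysed here.

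Signals are on the log2 scale, as deposited, with a value for each probe set. The median over all 49293 probe sets was 5.23 in vector, 5.25 in siRNA and 5.27 in control cells. With 1 array per group no difference had a replicate check, and no test or p-value is given. The error at hand was the SD of a difference between probe sets of the same gene, pooled over 5982 genes. In log2 units it was 0.36 when vector was set against control, 0.39 when siRNA was set against control and 0.21 between the transfected arms. It leaves out variation between cultures. Fewer cells of a type and less RNA per cell cannot be told apart in these samples.

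The squamous label was checked against 13 epithelial markers, of which 9 were analysed and all 9 lay above the array median on every array. Basal keratin KRT5 had log2 signals of 11.72 in vector, 12.47 in siRNA and 12.64 in control cells. The median difference of the 9 was -0.34 in vector minus control, with KRT14 2-fold lower, and -0.07 in vector minus siRNA, and its part in the collagen values was not tested. Of 12 fibroblast markers, 2 in vector, 3 in siRNA and 2 in control cells lay above the array median, with median signals of 3.79, 3.97 and 4.08 in that order. PDGFRA, PDGFRB, THY1, DCN, LUM and FAP were below the median on every array. TWIST1 and ACTA2 were above it on every array, and CDH11 had 3.19 in vector, 6.10 in siRNA and 4.09 in control cells. Of 8 endothelial markers 1, 2 and 2 were above the median in the same order, and of 7 leukocyte markers 2, 1 and 2.

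Most collagen genes were dim in these cells. For each gene the brightest probe set, by its mean signal, was used. By that measure 10 of the 43 chain genes (23.3%) lay above the array median in vector cells, 11 (25.6%) in siRNA cells and 14 (32.6%) in control cells. Over all 18132 genes the shares were 59.5%, 60.1% and 60.5%. Above the median on all 3 arrays were COL4A1, COL4A2, COL4A5 and COL4A6 of the basement membrane network, COL7A1, COL18A1, the type V fibrillar genes COL5A1 and COL5A2, and the beaded-filament genes COL6A1 and COL6A2. COL12A1 lay above it in siRNA and control cells. Probes differ in how strongly they bind, so these signals do not order the genes by abundance.

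COL11A2, COL25A1 and COL9A1 were above the median in control cells and below it in the transfected arms. Among them COL9A1 lay closest to it in the transfected arms and farthest from it in control cells. COL11A2, a minor fibrillar chain of cartilage, had log2 signals of 4.43 in vector, 4.77 in siRNA and 5.35 in control cells. COL25A1, a transmembrane collagen of neurons, had 4.56 in vector, 4.65 in siRNA and 5.35 in control cells. COL9A1, a fibril-associated cartilage chain, had 5.22 in vector, 4.94 in siRNA and 5.45 in control cells. For each of these genes only the brightest probe set was above the median in control cells. The others had 5.18 and 4.22 there for COL11A2, between 2.41 and 3.04 for COL25A1 and between 2.67 and 2.76 for COL9A1. The nearest gene below the median in every group was COL9A2, with 4.90 in vector, 5.04 in siRNA and 5.26 in control cells.

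The other 29 chain genes were below the median in every group, COL9A2 among them. They included COL1A1, COL1A2 and COL3A1, the main fibrillar chains of fibroblasts. COL1A1 had log2 signals of 4.86 in vector, 4.90 in siRNA and 5.07 in control cells, while COL3A1 had 2.63 in vector, 2.96 in siRNA and 3.03 in control cells. The remaining members were the fibrillar genes COL2A1, COL5A3, COL11A1, COL24A1 and COL27A1, the type IV genes COL4A3 and COL4A4, and the beaded-filament genes COL6A3, COL6A5 and COL6A6. COL8A1, COL8A2 and COL10A1 form short-chain networks. COL9A3, COL14A1, COL16A1, COL19A1, COL20A1, COL21A1 and COL22A1 are fibril-associated, COL13A1 and COL23A1 are transmembrane, and COL15A1, COL26A1 and COL28A1 complete the list. Signals of the 29 genes ran between 2.46 and 4.90 in vector cells, 2.63 and 5.04 in siRNA cells and 2.64 and 5.26 in control cells, and 15, 15 and 13 of them lay below the lower quartile of their array.

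**Figure D1:**
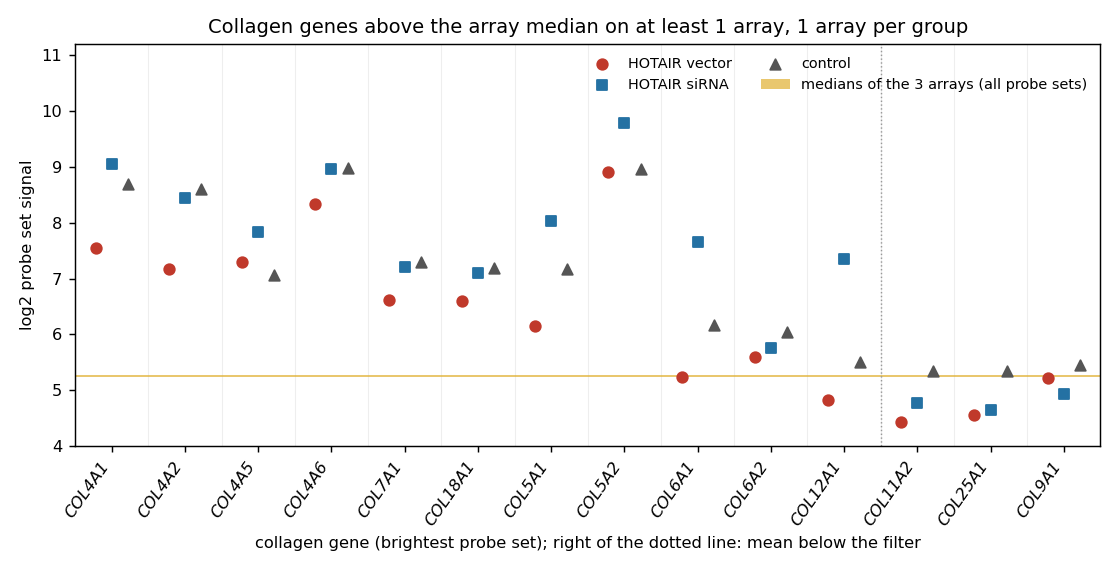
Log2 probe set signal (y axis) of the 14 collagen genes above the array median on at least 1 array, with 1 point per array for HOTAIR vector, HOTAIR siRNA and control cells and no error bars, since each group has 1 array. The band spans the array medians of 5.23 to 5.27. The vector point is the lowest of the 3 for every gene left of the dotted line except COL4A5, where it lies between control and siRNA.

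Differences were counted over the 11 chain genes with a mean signal of 5.28 or more, which is the median over the means of all probe sets, and 10917 genes in all passed the same filter. These were the 10 genes above the median on all arrays and COL12A1. The lowest mean among those kept was 5.80 (COL6A2) and the highest among those left out was 5.20 (COL9A1). COL12A1 passed through its siRNA signal, since its mean over the vector and control arrays was 5.17, while the other 10 passed without their highest array.

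In vector minus control, 0 of the 11 genes were at least 2-fold higher and 3 were at least 2-fold lower, COL4A1, COL4A2 and COL5A1. With differences centred on the median of all genes, COL4A2 alone of these 3 stayed past 2-fold, and COL5A1 was also under 2-fold with cyclic loess or the mean over its probe sets. Of all genes above the filter 15.2% were 2-fold higher and 2.05% 2-fold lower. The collagen median was -0.69 on the log2 scale, against -0.18 for all genes, and 10 of 11 were below 0, against 59.2% of all genes. In siRNA minus control, 2 of the 11 were at least 2-fold higher, COL12A1 and COL6A1, and 0 lower, where the shares of all genes were 14.9% and 1.85%. The median was 0.36, against -0.17 for all genes, and 5 of 11 were below 0, against 58.8% of all genes. In vector minus siRNA, which leaves out the control array, 5 of the 11 were at least 2-fold lower, COL4A1, COL4A2, COL5A1, COL6A1 and COL12A1, and 0 higher. Of all genes 1.85% were 2-fold lower and 1.73% higher. All 11 were below 0, against 47.9% of all genes, and their median was -0.87, against 0.01. The comparisons share arrays, so their counts are not independent of each other. COL12A1 was kept only through its siRNA signal, so its place in the counts and medians that involve the siRNA array carries no weight. Medians without it were not taken.

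**Figure D2:**
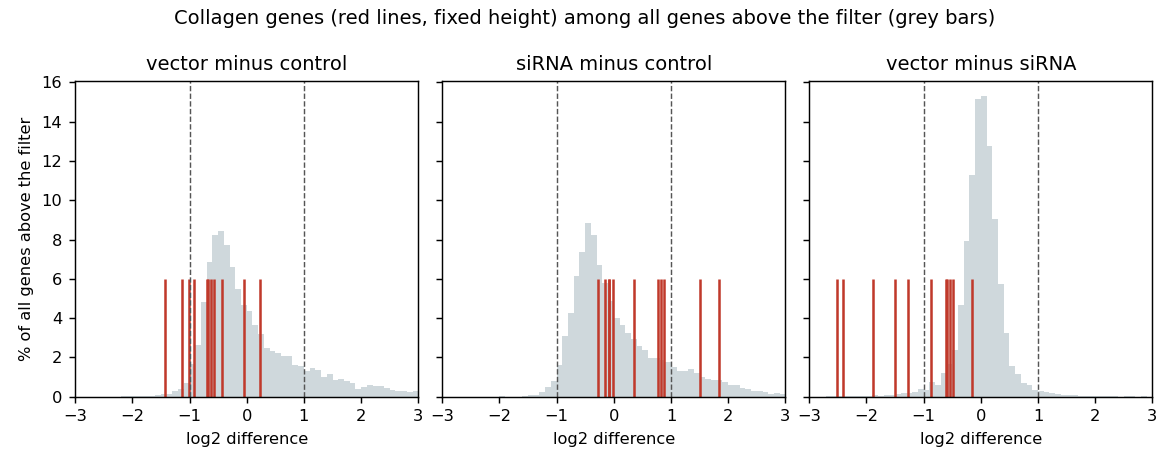
Log2 differences (x axis, drawn from -3 to 3) of all 10917 genes above the filter as the percentage in each bin (grey bars, y axis), with the 11 collagen genes as red lines of fixed height and dashed lines at 2-fold. All 11 collagen lines lie left of 0 in vector minus siRNA, and 2 lie right of the upper dashed line in siRNA minus control. COL12A1, kept only through its siRNA signal, is among the lines in both panels and carries no weight there.

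The basement membrane genes COL4A1 and COL4A2 encode the chains of the most widespread type IV collagen and were lower in vector cells than in both other groups. COL4A1 had log2 signals of 7.55 in vector, 9.05 in siRNA and 8.69 in control cells. It differed by -1.14 in vector minus control and by -1.50 in vector minus siRNA, a 2.82-fold difference. COL4A2 had 7.17 in vector, 8.45 in siRNA and 8.61 in control cells, and differed by -1.44 and -1.28 in those comparisons. The siRNA array was near control for both genes, at 0.36 for COL4A1 and -0.16 for COL4A2, which is within the spread between probe sets.

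The other probe sets above the filter gave the same direction for this pair and smaller sizes. The next brightest COL4A1 probe set had 5.12 in vector, 6.10 in siRNA and 6.07 in control cells, and differed by -0.95 in vector minus control and -0.99 in vector minus siRNA. For COL4A2 it had 5.24 in vector, 5.70 in siRNA and 6.18 in control cells, and differed by -0.93 and -0.46. Neither gene therefore passed 2-fold on its other probe set above the filter. The third COL4A1 probe set was below the lower quartile of every array, at 3.49 in vector, 3.53 in siRNA and 3.38 in control cells.

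COL4A5 and COL4A6 encode further type IV chains that assemble together in the basement membranes of skin, smooth muscle and oesophagus. Their differences from control were unlike each other. COL4A5 had log2 signals of 7.30 in vector, 7.84 in siRNA and 7.07 in control cells. It differed by 0.23 in vector minus control, 0.77 in siRNA minus control and -0.54 in vector minus siRNA. COL4A6 had 8.34 in vector, 8.96 in siRNA and 8.97 in control cells, with differences of -0.63, -0.01 and -0.62. Of its 6 probe sets above the filter, 6 were below 0 in vector minus control and 5 were below 0 in vector minus siRNA, while both such probe sets of COL4A5 were above 0 in either comparison with control. The dimmest of the 6, at 5.32 in vector, 5.22 in siRNA and 5.55 in control cells, passed the filter through its control signal. Between COL4A6 and COL4A5 the difference of differences was -0.87 in vector minus control and -0.08 in vector minus siRNA. None of these values reached 2-fold. COL4A5 in vector minus control and COL4A6 in siRNA minus control were within the spread between probe sets.

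Type IV collagen genes lie in the genome as head-to-head pairs, and the windows around their start sites are shown as a description. Between COL4A1 and COL4A2 the difference of differences was 0.30 in vector minus control, 0.52 in siRNA minus control and -0.22 in vector minus siRNA. Between COL4A6 and COL4A5 it was -0.87, -0.79 and -0.08, so which pair lay closer depended on the comparison. A link between the windows and these values was not tested. In RefSeq's GRCh38.p14 promoter windows of 300 bases, those of COL4A1 and COL4A2 on chromosome 13 overlap by 226 bases, with start sites 127 bases apart on opposite strands. On chromosome X, a COL4A6 window (chrX:108439409-108439708) and the COL4A5 window overlap by 121 bases, with start sites 380 bases apart. COL4A6 has a further window (chrX:108438373-108438672) that does not overlap the COL4A5 window. The windows of COL4A4 and COL4A3 on chromosome 2, the pair below the median in every group, overlap by 82 bases, with start sites 419 bases apart. The plus-strand windows, read 5′ to 3′, belong to COL4A2 (chr13:110307034-110307333), COL4A5 (chrX:108439588-108439887) and COL4A3 (chr2:227164374-227164673). Capitals mark the CCAAT box (CCAAT), the GC box (GGGCGG) and the TATA box (TATAAA) on either strand, none of which overlap here.
COL4A2: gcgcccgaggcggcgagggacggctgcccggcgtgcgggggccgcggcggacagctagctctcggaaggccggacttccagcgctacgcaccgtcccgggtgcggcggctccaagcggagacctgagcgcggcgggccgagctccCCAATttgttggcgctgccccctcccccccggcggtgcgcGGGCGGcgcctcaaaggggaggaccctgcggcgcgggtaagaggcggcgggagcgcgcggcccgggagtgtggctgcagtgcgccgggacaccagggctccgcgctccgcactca
COL4A5: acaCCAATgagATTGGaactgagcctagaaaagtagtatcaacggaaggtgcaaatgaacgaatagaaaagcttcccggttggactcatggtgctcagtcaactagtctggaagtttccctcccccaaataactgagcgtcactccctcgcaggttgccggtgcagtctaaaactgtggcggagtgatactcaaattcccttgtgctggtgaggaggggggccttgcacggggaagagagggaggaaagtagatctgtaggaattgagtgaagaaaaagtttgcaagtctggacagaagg
COL4A3: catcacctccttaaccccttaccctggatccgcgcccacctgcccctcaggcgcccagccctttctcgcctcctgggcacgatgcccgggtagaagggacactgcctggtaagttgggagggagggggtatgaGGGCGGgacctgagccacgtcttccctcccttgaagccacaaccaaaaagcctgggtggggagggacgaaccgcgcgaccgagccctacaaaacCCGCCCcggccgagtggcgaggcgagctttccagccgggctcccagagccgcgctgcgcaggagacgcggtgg

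The window of COL4A2 holds 1 CCAAT box and 1 GC box, that of COL4A5 holds 2 CCAAT boxes and no GC box, and that of COL4A3 holds 2 GC boxes and no CCAAT box. TATAAA is in none of the 3. Windows of 31 of the 43 chain genes were used, with several start sites for some and 43 windows in all. Those of COL1A1, COL1A2, COL2A1, COL3A1, COL5A2, COL6A1, COL6A5, COL8A1, COL9A3, COL14A1, COL20A1 and COL22A1 were not used here. Among these 43, a GC box was present in 24, a CCAAT box in 13 and a TATA box in 7. Over all 35116 RefSeq windows the shares were 45.0%, 34.6% and 11.5%. A match is a description of the letters and says nothing of a factor's binding.

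COL7A1, the chain of the anchoring fibrils, and COL18A1, a multiplexin of epithelial and vascular basement membranes that gives rise to endostatin, were lower in vector cells by less than 2-fold. COL7A1 had log2 signals of 6.61 in vector, 7.21 in siRNA and 7.30 in control cells on its only probe set. COL18A1 had 6.61 in vector, 7.10 in siRNA and 7.18 in control cells. Their vector minus siRNA differences were -0.59 and -0.49, and siRNA minus control was -0.09 and -0.08. The other COL18A1 probe set gave -0.63 and -0.06 for the same comparisons. For both genes the siRNA and control arrays differed by less than the spread between probe sets.

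COL5A1 and COL5A2 encode the chains of type V collagen, which nucleates and thins fibrils of type I collagen. COL5A1 was lowest in vector and highest in siRNA cells, with log2 signals of 6.15 in vector, 8.04 in siRNA and 7.16 in control cells. Its difference was -1.01 in vector minus control, 0.88 in siRNA minus control and -1.89, or 3.70-fold, in vector minus siRNA. The next probe set had 4.73 in vector, 6.48 in siRNA and 5.95 in control cells, with differences of -1.22, 0.53 and -1.76. The order of the 3 arrays was thus the same on both probe sets above the filter, and COL5A1 was the only collagen gene with at least 2 such probe sets past 2-fold in a comparison.

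COL5A2 was higher in siRNA cells and near control in vector cells on its brightest probe set, with log2 signals of 8.92 in vector, 9.79 in siRNA and 8.96 in control cells. Vector minus siRNA was -0.87 and siRNA minus control 0.83. Its other probe sets above the filter had siRNA minus control values of 0.10 and 0.08 and vector minus siRNA values of -0.66 and -0.42. The siRNA excess over control was therefore held by 1 of the 3 probe sets, while all 3 were lower in vector than in siRNA cells.

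Type VI collagen forms beaded filaments from chains of COL6A1, COL6A2 and, as a rule, COL6A3. COL6A1 had log2 signals of 5.25 in vector, 7.66 in siRNA and 6.16 in control cells, with the vector signal just above that array's median. Vector minus siRNA was -2.42 (5.34-fold) and vector minus control -0.92, and the siRNA signal was 2.83-fold that of control. These sizes rested on 1 of 6 probe sets. The next brightest had 5.40 in vector, 5.48 in siRNA and 5.86 in control cells and differed by -0.08 in vector minus siRNA, -0.46 in vector minus control and -0.38 in siRNA minus control, so siRNA was below control on it. Over the other 5 probe sets vector minus siRNA lay between -0.41 and 0.05, and siRNA minus control between -0.38 and -0.31.

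COL6A2 had log2 signals of 5.60 in vector, 5.76 in siRNA and 6.04 in control cells, and vector minus siRNA was -0.16. It thus did not share the siRNA excess of the brightest COL6A1 probe set, although it lies on the same chromosome, 21. COL6A3 was dim, with 4.11 in vector, 4.20 in siRNA and 4.62 in control cells.

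COL12A1 encodes a fibril-associated collagen that bridges type I fibrils and other matrix. It had log2 signals of 4.82 in vector, 7.34 in siRNA and 5.51 in control cells. Vector minus siRNA was -2.52 (5.75-fold) and siRNA minus control 1.83, while vector minus control was -0.69. The other 3 probe sets lay below the filter and did not show the siRNA excess over control. The brightest of them had 2.91 in vector, 3.52 in siRNA and 3.86 in control cells, with a siRNA minus control value of -0.34. Of the 12 fibroblast markers, CDH11 was also higher in siRNA than in control cells, by 2.01 (log2), while the other 11 differed by 0.48 or less in either direction. The median signal of the list was 3.97 in siRNA and 4.08 in control cells.

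Among all 10917 genes ordered from the lowest vector minus siRNA difference, COL12A1 stood at rank 18, COL6A1 at 22, COL5A1 at 43, COL4A1 at 73 and COL4A2 at 115. The rank of COL12A1 carries no weight, as that gene was kept only through its siRNA signal. Taken over the 25 probe sets of the 11 genes that lay above the filter, 24 were below 0 in vector minus siRNA, with a median of -0.57, and 23 in vector minus control, with a median of -0.63. In siRNA minus control 13 were below 0 and 12 above, with a median of -0.01. Of all genes above the filter, on their brightest probe sets, 47.9% and 59.2% were below 0 in vector minus siRNA and vector minus control. The share over all probe sets was not taken. Probe sets of the same gene are not independent, and 6 of the 25 were of COL4A6. The COL12A1 probe set passed the filter through its siRNA signal and the dimmest of the COL4A6 ones through its control signal. They carry no weight in the comparisons that involve those arrays. The lower level in vector cells was seen on most of these probe sets. The positive median of siRNA minus control, which included COL12A1, was seen for the brightest probe sets and not over all 25.

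**Figure D3:**
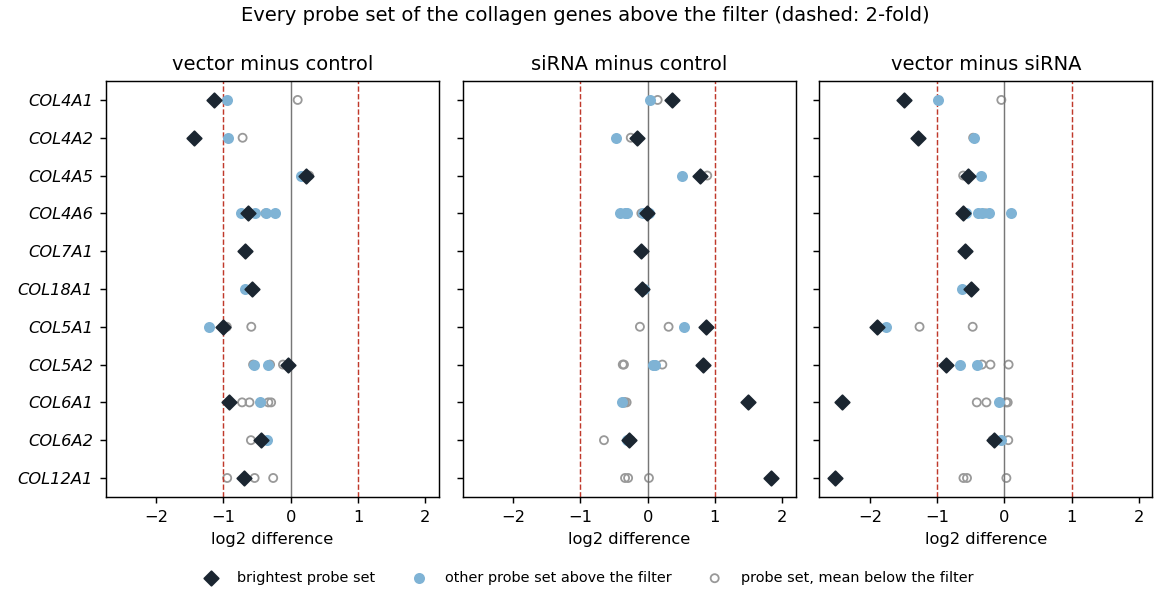
Log2 difference (x axis) of every probe set of the 11 collagen genes above the filter (y axis), in 3 comparisons, with the brightest probe set as a diamond, others above the filter as filled circles and dim ones as open circles. The COL5A1 probe sets above the filter lie at -1.89 and -1.76 in vector minus siRNA, whereas the COL6A1 diamond at -2.42 stands apart from its other probe sets.

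The 32 chain genes below the filter showed no 2-fold difference on their brightest probe sets. Their differences ran from -0.92 to 0.49 in vector minus control, from -0.69 to 0.50 in siRNA minus control and from -0.65 to 0.52 in vector minus siRNA, with medians of -0.25, -0.22 and -0.07. Of their 78 probe sets, 2 had vector signals at least 2-fold below control. These were a COL1A1 probe set with 3.45 in vector and 4.63 in control cells and a COL11A2 probe set with 4.14 in vector and 5.18 in control cells, and 0 passed 2-fold in the other comparisons.

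The rest of the collagen pathway was followed on 8 lists. Enzymes and chaperones that hydroxylate and fold procollagen were almost all measured above the filter, 17 of 19. In vector minus control 2 were 2-fold higher and 1 lower, in siRNA minus control 3 higher and 0 lower, and in vector minus siRNA 0 higher and 1 lower. The counts of higher genes were near the shares of all genes, 15.2% in vector and 14.9% in siRNA cells relative to control. Of all genes 2.05% were 2-fold lower in vector minus control and 1.85% in vector minus siRNA. The lower gene was P3H2, a prolyl hydroxylase that acts on basement membrane collagen, with log2 signals of 5.90 in vector, 6.99 in siRNA and 7.46 in control cells. Higher than control were TMEM38B, an ion channel of the endoplasmic reticulum needed for collagen folding (1.63 in vector and 1.56 in siRNA cells), and the prolyl isomerase FKBP14 (1.05 and 1.41). PLOD2, which hydroxylates lysines used in cross-links, was 0.97 in vector and 1.39 in siRNA cells relative to control. On second probe sets P3H2 was at -0.38 in vector minus control and 0.04 in vector minus siRNA, TMEM38B at 0.16 in vector and 0.02 in siRNA cells relative to control, and FKBP14 at 0.86 and 1.10, so that several of these calls rested on 1 probe set. P3H2 differed by -1.56 from control and by -1.09 from siRNA cells on the brightest one.

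All 10 genes of procollagen export were kept. Their median was 0.58 in vector minus control, against -0.18 for all genes, and 0.74 in siRNA minus control, against -0.17. The counts past 2-fold, 1 and 2 genes higher and 0 lower, were near the shares of all genes (15.2% and 14.9% higher). These were MIA2, a partner of the large-cargo export receptor (1.33 in vector cells), and, in siRNA cells, the chaperone HSP90B1 (1.18) and the coat protein gene SEC23A (1.00). MIA2 was below 2-fold on its second probe set (0.93), when its probe sets were averaged (0.52) and when those ending in _x_at or _s_at were left out (0.40). SEC23A was below 2-fold when its probe sets were averaged (0.73) and after repeated quantile normalization (0.90). Between the arms the median was -0.17 with 0 past 2-fold. Of the genes for propeptide cleavage 3 of 10 were kept, and only PCOLCE2, which enhances removal of the carboxyl propeptide, passed 2-fold. PCOLCE2 had log2 signals of 6.96 in vector, 8.59 in siRNA and 7.71 in control cells (-1.63 in vector minus siRNA, on its only probe set). Its order over the arrays was that of COL5A1, and 1.85% of all genes were 2-fold lower in vector minus siRNA.

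Cross-linking enzymes (4 of 6 kept) and small proteoglycans and fibril regulators (3 of 13 kept) had 0 genes past 2-fold in any comparison. The lysyl oxidase genes LOXL4 and LOXL3 differed by -0.98 and -0.75 in vector minus control. THBS1 and PRELP, which bind collagen in the matrix, differed by -0.50 and -0.53 there. In vector minus siRNA these 4 genes were at -0.69, -0.06, 0.03 and -0.33.

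Among collagen receptors, 8 of 14 were kept. MRC2, an endocytic receptor that takes up collagen for breakdown, had log2 signals of 6.92 in vector, 9.73 in siRNA and 9.09 in control cells and was the only receptor past 2-fold in vector minus siRNA (-2.81) or vector minus control (-2.17). Its second probe set gave -0.37 and -0.70. Of all genes 1.85% and 2.05% were 2-fold lower in those comparisons. In siRNA minus control, where 14.9% of all genes were higher, 2 of the 8 were higher, ITGA2 (1.48) and ITGB1 (1.24), the subunits of a collagen-binding integrin. Their vector minus control values were 0.72 and 0.84.

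Collagen-degrading enzymes had the lowest median of the lists in vector minus siRNA (-0.54) and in vector minus control (-0.85), with 8 of 14 kept and 3 of them 2-fold lower in each, where 1.85% and 2.05% of all genes were lower. These were the collagenase genes MMP1 (-5.35 and -6.83) and MMP13 (-3.18 and -3.33) and the gelatinase gene MMP2 (-2.14 and -2.15). The vector signals of MMP1 and MMP13, 3.49 and 3.80, were near the lower quartile of that array (3.58), and MMP13 was at -0.62 and -0.97 on its second probe set. MMP1 stayed past 2-fold there, at -3.93 and -5.41. In siRNA minus control, where 1.85% of all genes were lower, 2 were lower, MMP1 (-1.48) and PEPD (-1.07). PEPD is a dipeptidase that releases proline from collagen fragments. PEPD was under 2-fold with cyclic loess (-0.94) and after centring (-0.90). The medians of the chain genes and of the degradation list were both below that of all genes in vector minus siRNA. Whether these enzymes act on the chains kept here was not tested.

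Partners of type IV, type VII and type XVII collagen at the basement membrane were kept in 9 of 12 cases. In vector minus siRNA 2 were lower and 0 higher, against 1.85% and 1.73% of all genes. NID1, which joins laminin to the type IV network, had log2 signals of 6.57 in vector, 9.37 in siRNA and 8.64 in control cells (-2.80). Its second probe set gave -1.76. FREM2, of the Fraser complex at the epithelial base, had 5.12 in vector, 7.64 in siRNA and 5.56 in control cells (-2.52). In siRNA minus control 3 of the 9 were higher, against 14.9% of all genes, FREM2 (2.08), the plakin gene DST (1.68) and FRAS1 (1.42), the last at 0.16 on its other probe set. In vector minus control DST was higher (1.32) and NID1 (-2.08) and the tetraspanin gene CD151 (-1.06) were lower. Of all genes 15.2% were higher and 2.05% lower there. NID1 stayed past 2-fold under all 6 alternatives run for it, and CD151 under 2 of 6, with values between -1.16 and -0.85.

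**Figure D4:**
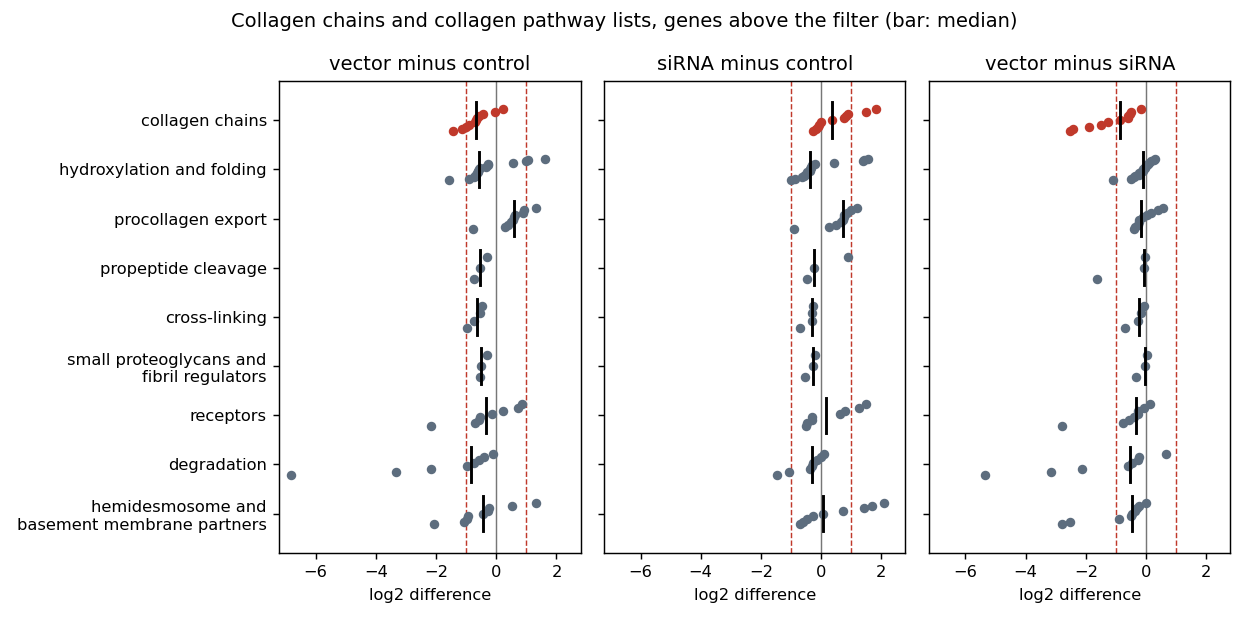
Log2 differences (x axis) of the 11 collagen chain genes and of the genes above the filter in 8 collagen pathway lists (y axis), with 1 point per gene and a bar at each median, dashed lines at 2-fold. In vector minus siRNA the chain median is -0.87, and the degradation list has the next lowest at -0.54. The chain median includes COL12A1, which was kept only through its siRNA signal and carries no weight there.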

How the data were processed

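Per the labels' protocols, biotin-labelled RNA of the 3 groups, made with a 3′ IVT kit, was measured on 1 array per group. The authors deposited log2 signals per probe set, summarised with RMA per the submitters' processing notes. The log2 scale was read from their range. For the RMA version and chip definition, the sources used here give nothing. RMA equalises probe intensity distributions and compresses differences near the background.

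Of 49293 probe sets, 44988 had 1 gene symbol in the platform annotation, 1832 had several and 2473 were not listed. Symbols of all 122 collagen probe sets were found in RefSeq by Entrez identifier and 0 changed. The brightest probe set by mean signal stood for each gene, and 10917 genes with that mean at or above the median probe set mean were kept. The steps were tested on simulated arrays in which every probe set of a changed gene was lowered by the same amount. Probe sets of a gene disagreed in these data, so that setting was easier and does not bear on single calls. No test was made with 1 array per group, and the arrays' number limits the precision. The members, lists and rule for named genes were chosen with earlier results of these data known. That rule named every chain gene, gave signals on each array for those above an array median, and took from each list the kept genes past 2-fold (at most 6) or else the 2 most different. Alternatives were the mean over probe sets, leaving out probe sets with names ending in _x_at or _s_at, repeated quantile normalization, cyclic loess (limma, span 0.7, 3 iterations), centring, other filters and a threshold of 1.5-fold. The use of the second brightest probe set was chosen after seeing the data. Python 3.11.15, numpy 2.4.6, pandas 2.3.3, matplotlib 3.10.9, R 4.3.3 and limma 3.58.1 were used.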

Additional observations from a re-analysis of the deposited data

How the results depend on the processing

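Of collagen genes 2-fold lower in vector minus control, 3 as reported, 1 was left with the mean over probe sets (COL4A2), 1 without probe sets ending in _x_at or _s_at (COL5A1), 1 after centring (COL4A2) and 1 with the second probe set (COL5A1). Of those 2-fold higher in siRNA minus control, 2 as reported, there were 0, 1, 3 and 0 in the same order. Of those 2-fold lower in vector minus siRNA, 5 as reported, 1, 2, 5 and 1 were left, with COL5A1 past 2-fold in each case and between -1.91 and -1.34 under all 6 alternatives run for it. Repeated quantile normalization and cyclic loess kept each of these counts within 1.5 times. A filter at the 75th percentile left 4 collagen genes, with 0 higher in siRNA minus control and 2 lower in vector minus siRNA. At 1.5-fold the 3 counts were 7, 5 and 8, against 19.4%, 22.8% and 4.95% of all genes in the same direction.

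The collagen median of siRNA minus control was -0.070 with the mean over probe sets and -0.12 with no filter, so its sign was not fixed, and 0.04 to 0.53 under the others. That of vector minus siRNA was -0.56 with the mean over probe sets, -0.62 without probe sets ending in _x_at or _s_at and -0.15 with no filter. That of vector minus control stayed between -0.88 and -0.36. For COL6A1, siRNA minus control turned to -0.040 with the mean over probe sets, -0.31 without such probe sets and -0.38 with the second probe set. COL12A1 turned to -0.34 there, and P3H2 in vector minus siRNA to 0.041. The cause was not tested.

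Genes above the array median were 9 in control cells with the mean over probe sets and 6 in vector cells without probe sets ending in _x_at or _s_at. At the 75th percentile of each array they were 2 in vector, 7 in siRNA and 4 in control cells. For these settings the share of all genes was not taken, so the counts cannot be set against it. Cyclic loess moved the median of all genes kept from -0.18 to -0.02 in vector minus control and from -0.17 to 0.02 in siRNA minus control. With 1 array per group, array and group cannot be told apart.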

Other observations

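Below the filter, TGFBI, a matrix protein that binds collagen, was singled out after its values were seen. It had log2 signals of 6.40 in vector, 3.97 in siRNA and 4.74 in control cells, so it was above the array median in vector cells only. Its vector minus siRNA difference was 2.42 on the brightest of its 4 probe sets. The siRNA signal lay near the lower quartile of its array (3.62).

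ERG, an endothelial transcription factor gene also below the filter, was noticed after its values were seen. On the brightest of its 12 probe sets it had 3.83 in vector, 5.46 in siRNA and 4.77 in control cells. That order was the same as for COL5A1 and PCOLCE2, and the other ERG probe sets were not analysed here. Of the other endothelial markers, PECAM1, CDH5, KDR, TEK and EMCN were below the median on every array. TIE1 was above it on every array, with 5.87 in vector, 5.94 in siRNA and 6.42 in control cells. VWF was above it in control cells only, at 5.51.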
